A study of Arabidopsis thaliana with 24 samples.

Results

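The PIP1 aquaporins of Arabidopsis thaliana were described in roots and shoots of seedlings held in water or in a solution of polyethylene glycol (PEG), which lowers the water potential around the plant. The set holds 5 genes: PIP1A (AT3G61430, also called PIP1;1), PIP1B (AT2G45960, PIP1;2), PIP1C (AT1G01620, PIP1;3), PIP1;4 (AT4G00430) and PIP1;5 (AT4G23400). Genes go by their RefSeq symbols. They were chosen by locus code, all 5 were among the 14557 genes of the deposited count table, and all 5 passed the filter on low counts in every fit. Aquaporins are membrane channels that let water, and in some cases CO2, hydrogen peroxide or other small solutes, cross a membrane along a gradient. The plasma membrane intrinsic proteins (PIPs) carry water across the cell surface in roots and leaves, and they fall into the PIP1 and PIP2 groups. In frog oocytes and in maize cells, PIP1 proteins reach the plasma membrane poorly on their own and do so when they form tetramers with PIP2 proteins, and the activity of PIPs is set by phosphorylation, trafficking and turnover as well as by transcript level.

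All 24 libraries carry the genotype label ulox, which they leave undefined, and none is labelled as wild type, so every comparison lies within that line. Seedlings 7 d old, grown at 21 °C on a cycle of 16 h light and 8 h dark, on medium with 1% sucrose, were placed in water for 1 h or in 30% PEG (-2.0 MPa) for 1, 2 or 3 h. Roots and shoots of 30 to 50 pooled seedlings per biological replicate were then separated, and each of the 8 groups has 3 replicates, A, B and C. The water group has 1 time only, so 2 h and 3 h of PEG differ from it in time in solution as well, and the 3 PEG comparisons of an organ share its 3 water libraries. Sample titles code water as time 0 where the source names say 1 h, and a tissue field that reads root for every sample was set aside for the organ in the source name.

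Libraries held 1597302 to 7029587 counts in root and 1203312 to 6090852 in shoot. The organ labels matched the summed counts of the marker genes. The 13 photosynthesis genes took 13.6 to 15.8% of the counts of shoot libraries and 0.0626 to 0.146% of those of root libraries. The 10 root genes took 0.107 to 0.191% in root and 0.00275 to 0.00644% in shoot. Of these root genes NRT2.1, with few counts in either organ, did not follow the sum. It held 39 counts over the 12 root libraries and 42 over the 12 shoot libraries. RBCS1A, a Rubisco small subunit, was lower in root than in shoot by log2 -7.84, and CASP1, of the Casparian strip, was higher by 6.04. RD29A, an osmotic stress gene, rose in shoot at 1, 2 and 3 h of PEG by log2 2.37, 3.20 and 4.24, whereas in root its log2 values of 0.94, 0.52 and 0.062 did not pass the test. Of the 4 osmotic response genes tested in root, the transcription factor gene RD26 rose at 1 h (log2 2.61, edgeR adjusted p = 0.0243), RD26 and NCED3, of abscisic acid synthesis, rose at 2 h (2.33 and 3.01, edgeR adjusted p = 0.0424 for both), and none was called at 3 h. These last genes were named after their values were seen. The root water library of replicate B stood apart. It had the highest level of all 5 PIP1 genes among the 12 root libraries, the smallest TMM factor in root (0.822, the others up to 1.53) and the fewest genes with a count (11638), and results that rest on it are given with and without it.

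The promoters of the members and of RD29A were read, and those of PIP1C, PIP1;4 and RD29A are printed. How alike these upstream sequences are was not measured. PIP1C is one of the 3 members called higher in root than in shoot and the only member with a DRE core in this window, PIP1;4 is the member called lower, and RD29A rose in shoot under PEG. Each run is the 250 bases before the annotated start in the RefSeq TAIR10.1 assembly, written 5′ to 3′ on the gene's strand. Capitals mark matches to CCGAC (the core of the dehydration-responsive element, DRE) or to TATAAA, a core promoter box, both searched on both strands. PIP1C lies on the minus strand of chromosome 1, PIP1;4 on the minus strand of chromosome 4 and RD29A on the plus strand of chromosome 5.
PIP1C: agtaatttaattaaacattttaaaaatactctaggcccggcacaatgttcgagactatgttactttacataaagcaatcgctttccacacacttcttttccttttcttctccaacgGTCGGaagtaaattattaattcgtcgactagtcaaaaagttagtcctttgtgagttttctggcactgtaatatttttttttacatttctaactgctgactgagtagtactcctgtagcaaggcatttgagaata
PIP1;4: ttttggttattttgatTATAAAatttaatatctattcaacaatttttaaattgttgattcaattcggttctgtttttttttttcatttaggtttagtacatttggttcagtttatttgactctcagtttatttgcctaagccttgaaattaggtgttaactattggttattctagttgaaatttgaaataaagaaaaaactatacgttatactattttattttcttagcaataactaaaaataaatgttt
RD29A: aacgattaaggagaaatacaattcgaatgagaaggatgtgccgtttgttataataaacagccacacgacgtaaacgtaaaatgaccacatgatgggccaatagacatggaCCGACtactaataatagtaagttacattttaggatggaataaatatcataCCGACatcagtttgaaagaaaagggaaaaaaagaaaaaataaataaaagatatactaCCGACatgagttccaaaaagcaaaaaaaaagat

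RD29A held CCGAC 3 times, starting 140, 90 and 33 bases before the gene. PIP1C held it 1 time, on the opposite strand and starting 134 bases before the gene, and the other 4 members held none, where 12% of 27443 promoters of this length hold at least 1. The core of the abscisic acid response element, ACGTG, was in none of the windows of the 5 members or of RD29A. It was in 22.9% of all promoters of this length. Bases past the annotated start or farther upstream were not searched, so no match in a window does not show that a gene lacks the element. TATAAA was found in PIP1B, PIP1;4 and, as overlapping matches on both strands, PIP1;5, and in 47.3% of all promoters. These matches describe letters in the windows read and say nothing of a factor.

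The 5 genes are close relatives, so it was checked whether 3′ reads could be placed on 1 of them. Their coding sequences were 79.5 to 87.6% identical over the 10 pairs, the closest pair being PIP1A and PIP1B. Over the last 300 bases of their transcripts, where 3′ end tags fall, identity was 45.7 to 54.9%, and 0 of the 251 to 502 windows of 50 bases per gene matched another PIP1 transcript or another place in the genome. The authors' own build and annotation were not given, so this holds for TAIR10.1.

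Levels are CPM, a gene's count relative to its library's scaled total, after 1 scaling of all 24 libraries by the trimmed mean of M-values (TMM), as mean ± SD over 3 replicates. They are compared between libraries for 1 gene and not between genes. In whole organs, fewer cells of a type and less RNA per cell cannot be told apart.

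**Figure D1:**
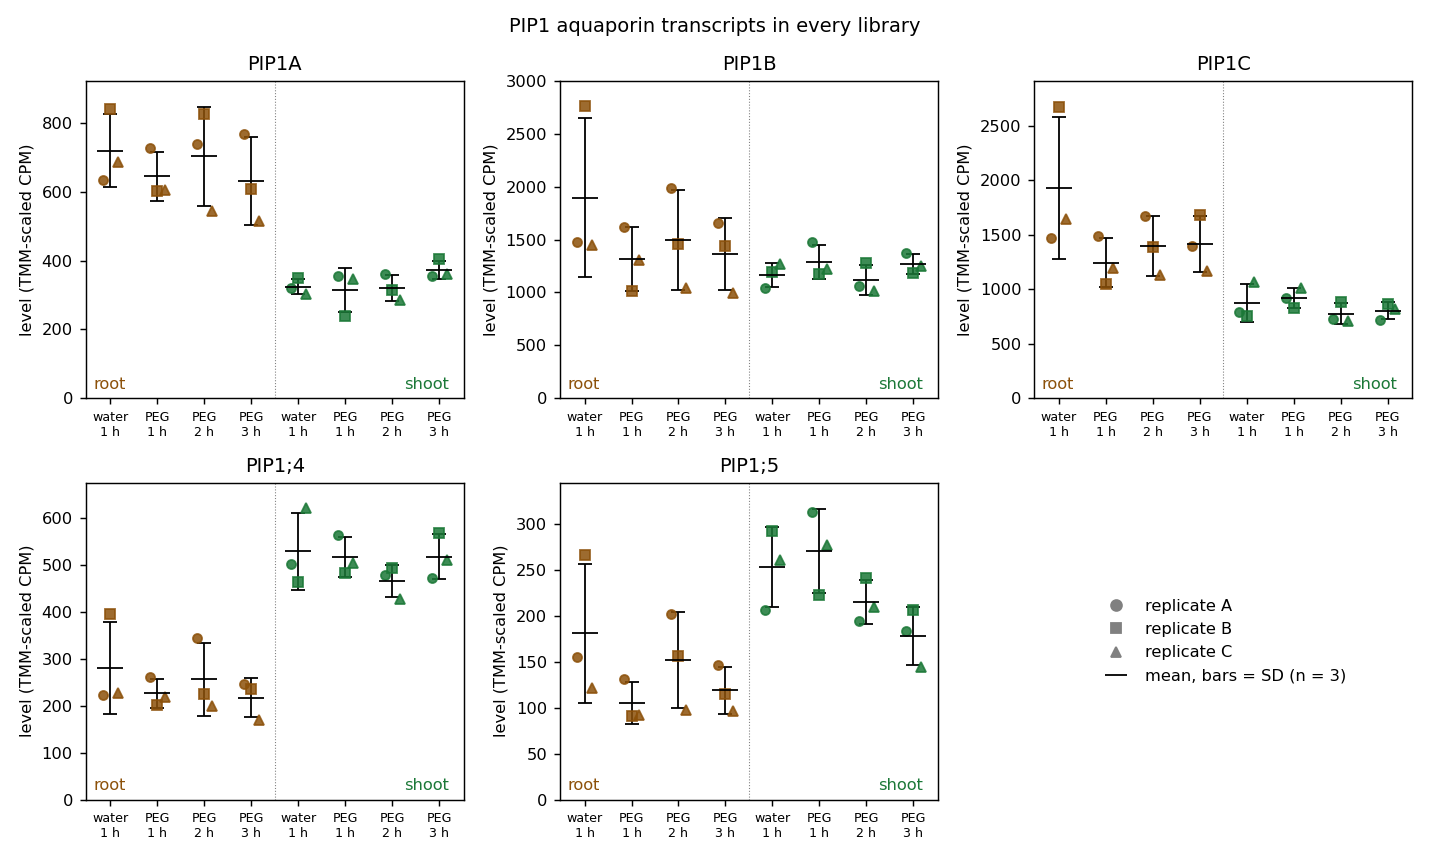
TMM-scaled CPM (y axis, linear, from 0) of each PIP1 gene in the 8 groups, root in brown and shoot in green. Points are libraries, with replicate A, B and C as circle, square and triangle, and bars are mean and SD of 3. All 12 root libraries lie above all 12 shoot libraries for PIP1A and below them for PIP1;4.

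PIP1A ran from 516 to 841 CPM over the 12 root libraries and from 240.0 to 404 over the 12 shoot libraries, and the organs did not overlap. How many of all genes separate in this way between organs was not counted. Its 4 root groups came first, in the order water (720.4 ± 108), 2 h (703 ± 145), 1 h (646 ± 71.3) and 3 h (631 ± 128), and each overlapped the next. The shoot groups followed with 3 h of PEG (374 ± 26.2), whose libraries lay above all 3 of water (324 ± 22.4), and then 2 h (319.6 ± 38.2) and 1 h (315 ± 64.8), which overlapped water. The means of PIP1A thus differed within an organ by no more than 1.14 times in root and 1.19 times in shoot.

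PIP1B, which has been linked to CO2 as well as water transport in Arabidopsis, ran from 995 to 2769 CPM in root and from 1014 to 1475 in shoot. Its highest group was root in water (1898 ± 755), then root at 2 h (1499 ± 474), 3 h (1365 ± 339) and 1 h (1315 ± 302). The 4 shoot groups came next, from 1289.6 ± 162 at 1 h to 1119.7 ± 143 at 2 h, with 1269 ± 95.1 at 3 h and 1168 ± 114 in water. Each of the 8 groups overlapped its neighbour in that order.

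PIP1C ran from 1046 to 2670.2 CPM in root and from 704 to 1068 in shoot, with 1 root library, at 1 h of PEG, under the highest shoot library. Root in water (1927 ± 650) led, then root at 3 h (1413 ± 257), 2 h (1394 ± 273) and 1 h (1243 ± 225). The shoot groups lay within 1.19 times of each other, at 917 ± 91.9 after 1 h, 868 ± 174 in water, 799 ± 77.6 after 3 h and 772 ± 97.0 after 2 h, and neighbours overlapped. Only the step from the last root group to the first shoot group showed no overlap.

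PIP1;4, which in Arabidopsis leaves carries hydrogen peroxide as well as water, had the reverse order. Its shoot libraries ran from 428 to 620.4 CPM and its root libraries from 170.2 to 395. The shoot groups were close to each other, with water at 529 ± 81.5, 3 h at 517 ± 47.9, 1 h at 517 ± 41.9 and 2 h at 466 ± 33.9. Root followed with no overlap, at 281 ± 97.9 in water, 256 ± 77.2 after 2 h, 227 ± 31.0 after 1 h and 217 ± 41.3 after 3 h. As for PIP1A, the share of all genes that separate in this way was not counted.

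PIP1;5 ran from 144 to 314 CPM in shoot and from 91.5 to 267 in root, so the organs overlapped. Shoot at 1 h (271 ± 45.8), in water (254 ± 43.7) and at 2 h (215 ± 23.8) came first, root in water (181 ± 75.9) and shoot at 3 h (179 ± 31.6) were level, and root at 2 h (152 ± 52.2), 3 h (119 ± 25.5) and 1 h (105 ± 22.7) were last. No pair of neighbours in this order was apart.

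The comparison of roots with shoots in water asks where each gene is expressed in seedlings held in water for 1 h, without PEG. PIP1A and PIP1C were both 2.22 times higher in root, PIP1B was 1.62 times higher, and PIP1;4 was lower in root, at 0.531 of its shoot level. PIP1;5 did not pass the test. With edgeR's quasi-likelihood test and Benjamini-Hochberg adjustment, called at an adjusted p under 0.05 over 10967 genes, 3 of 5 members were higher, 1 was lower and 1 was not called. Of all genes tested 53.3% were called, 27.1% higher and 26.2% lower, beside the 4 of 5 members.

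For PIP1A the root water libraries A, B and C held 634, 841 and 686 CPM and the shoot water libraries 320.4, 348 and 304. The log2 difference was 1.15 (SE 0.22, edgeR adjusted p = 7.25e-05). For PIP1C the root libraries held 1465, 2670.2 and 1644 CPM and the shoot libraries 785, 751 and 1068. Neither gene had a root library as low as any shoot library, and the difference of PIP1C was log2 1.15 (SE 0.24, edgeR adjusted p = 0.000318). Both calls held when any of the 6 water libraries was left out, with log2 0.92 to 1.09 for PIP1A and 0.74 to 1.17 for PIP1C.

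PIP1;4 held 222, 395 and 227 CPM in root and 501, 465 and 620.4 in shoot. Even root library B, its highest, lay under all 3 shoot libraries. The log2 difference was -0.91 (SE 0.24, edgeR adjusted p = 0.00233), and it ran from -1.33 to -0.91 with 1 library left out at a time, called each time.

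PIP1B held 1475, 2769 and 1449 CPM in root and 1044, 1192 and 1268 in shoot. The groups did not overlap, but library B alone was far above the rest, and the call (log2 0.70, SE 0.27, edgeR adjusted p = 0.0338) rests on it. Without root water B the log2 difference was 0.22 (adjusted p = 0.539), and the call was also lost without root water A (0.70, 0.0633) and without shoot water A (0.50, 0.216), B (0.60, 0.135) or C (0.60, 0.131). It was lost as well with DESeq2's size factors (0.68, adjusted p = 0.0620) and with no filter on low counts (0.56, adjusted p = 0.102). With root and shoot of 1 letter taken as 1 seedling pool, a replicate block added after the data were seen, it was 0.63 (adjusted p = 0.0614). The authors' deposited table gives an adjusted p of 0.0513 for the same comparison. PIP1;5 held 155, 267 and 122 CPM in root and 207, 293 and 261 in shoot, which overlap through library B. Its log2 difference of -0.49 (SE 0.28, edgeR adjusted p = 0.144) became -0.97 without root water B and was then called (adjusted p = 0.00881).

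**Figure D2:**
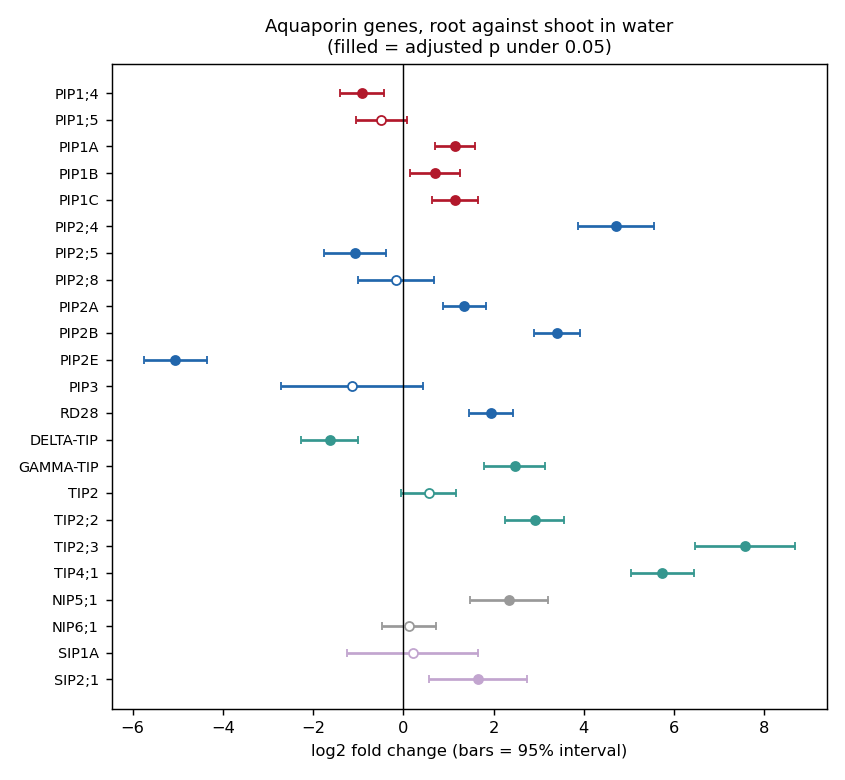
Log2 fold change of root against shoot in water (x axis) for the 23 aquaporin genes tested, coloured by group, with unadjusted 95% intervals and filled points where the edgeR adjusted p is under 0.05. PIP1A, PIP1B and PIP1C lie right of 0, PIP1;4 lies left, and the range of the other aquaporins, from -5.06 to 7.57, is wider than that of the PIP1 genes.

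The same organ difference was taken over the 18 PEG libraries, a comparison added after root water B was seen to stand apart, and it does not use the water libraries. PIP1A (log2 0.98, SE 0.12, edgeR adjusted p = 1.21e-07) and PIP1C (0.70, SE 0.14, 8.32e-05) were higher in root. PIP1;4 (-1.10, SE 0.14, 1.03e-07) and PIP1;5 (-0.82, SE 0.16, 6.98e-05) were lower in root. PIP1B was not called (0.19, SE 0.16, 0.297), so 2 of 5 members were higher and 2 lower where 70.1% of all genes were called, 37.8% higher and 32.3% lower. Root and shoot libraries differ in scale: under library totals, used instead of TMM, the comparison's all-gene median moved up by 0.60, PIP1B became higher in root (0.74, adjusted p = 8.22e-07) and PIP1;5 was not called (-0.25, adjusted p = 0.0642). PIP1A, PIP1C and PIP1;4 kept their direction and their call under library totals, with PIP1;4 at -0.54. Across water and PEG, then, PIP1A and PIP1C were root-higher and PIP1;4 shoot-higher under each scaling and each left-out library tried, and the calls of PIP1B and PIP1;5 changed with the scaling or with root water B.

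PEG was set against water to ask whether an osmotic shock moved the transcripts. In root, 0 of 5 members were called at 1, 2 or 3 h, over the mean of the 3 times, or between 3 h and 1 h. Of the 9751 genes tested, 0.472%, 0.185%, 0.226%, 1.04% and 0% were called in these comparisons, so few root genes of any kind passed. At an unadjusted p under 0.05 there was 1 member at 1 h (PIP1;5) and 0 in the other 4 comparisons. Of all 9751 genes, 1248, 780, 763, 1256 and 119 were under that p in the same comparisons. DESeq2 also called 0 of 5 in each.

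All 15 log2 values of the 5 genes at the 3 times were below 0 in root with TMM, from -0.77 to -0.02. The median of all genes was 0.13, 0.06 and 0.11. The 15 are not separate results. They share 3 water libraries, with root water B the highest for all 5 genes. The members also varied together in root, with Pearson's r of 0.67 to 0.96. PIP1;5 held 155, 267 and 122 CPM in water, 131, 91.5 and 92.6 at 1 h, 202, 157 and 97.7 at 2 h, and 147, 115 and 96.1 at 3 h. Its 1 h libraries overlapped water through library A, and the log2 change there was -0.77 (SE 0.33, unadjusted p = 0.0390, edgeR adjusted p = 0.373). PIP1C held 1465, 2670.2 and 1644 CPM in water and 1488, 1046 and 1196 at 1 h, a log2 change of -0.62 (SE 0.30, edgeR adjusted p = 0.409). Here too library A under PEG lay above library A in water, and the groups overlapped. For root at 1 h the authors' deposited table gives lower adjusted p-values, 0.102 for PIP1;5 and 0.0809 for PIP1C, both above 0.05.

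The root values moved with root water B. Without it 5 of the 15 were above 0, PIP1;4 at 1 h (0.0048) and PIP1A, PIP1B, PIP1;4 and PIP1;5 at 2 h (0.094, 0.039, 0.19 and 0.13), and the other 10 stayed below 0, with PIP1;5 at -0.41 and PIP1C at -0.33 at 1 h. Library totals moved all root genes up together, and their median became 0.41, 0.26 and 0.29 at 1, 2 and 3 h. PIP1A was then above 0 at all 3 times (0.17, 0.19 and 0.028) and PIP1;4 at 1 and 2 h (0.057 and 0.093). The other 10 of the 15 values stayed below 0. All 15 lay below the median of all genes, as they did with TMM, but this was not checked without root water B. Of the 15 unadjusted 95% intervals in root, 14 held 0, and that of PIP1;5 at 1 h ran from -1.49 to -0.045.

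**Figure D3:**
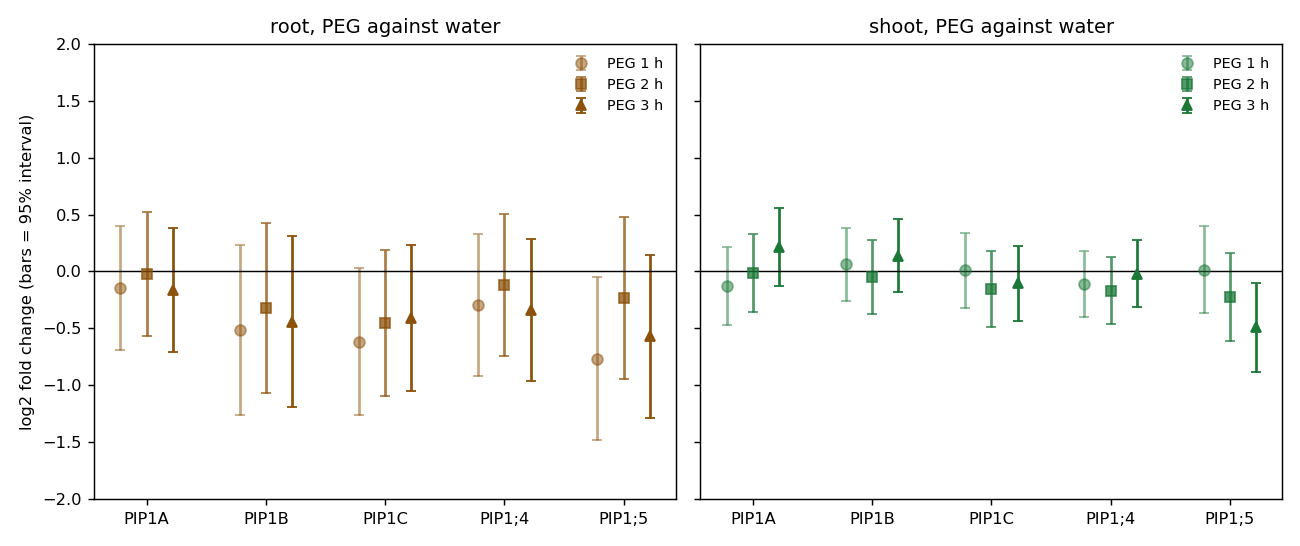
Log2 fold change (y axis) of each PIP1 gene under PEG at 1, 2 and 3 h against water, root at left and shoot at right, with unadjusted 95% intervals from edgeR. The root intervals are wider than those of shoot, and the shoot value of PIP1;5 at 3 h, -0.49, is the only one of the shoot values whose interval does not reach 0.

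In shoot, where far more genes were called than in root, no PIP1 transcript passed the test, and 0 of 5 members were called at 1, 2 or 3 h, over their mean, or between 3 h and 1 h, beside 12.4%, 10.7%, 17.1%, 16.5% and 4.63% of 9207 genes. At an unadjusted p under 0.05 there was 1 member at 3 h against water and 1 at 3 h against 1 h, both times PIP1;5. There were 0 in the other 3 comparisons. Of all 9207 genes, 2339, 1848 and 2671 were under that p at 1, 2 and 3 h. It was 2596 over the mean and 1647 between 3 h and 1 h. DESeq2 called 0 of 5 in each. The unadjusted 95% intervals of PIP1A, PIP1B, PIP1C and PIP1;4 at the 3 times all lay between -0.49 and 0.56.

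PIP1;5 held 207, 293 and 261 CPM in shoot water, 314, 223 and 277 at 1 h, 195, 241 and 210.0 at 2 h, and 184, 207 and 144 at 3 h. All but library B at 3 h lay under every water library, and library B equalled water library A to within 1 CPM. The log2 change at 3 h was -0.49 (SE 0.19, 95% interval -0.89 to -0.10, unadjusted p = 0.0170, edgeR adjusted p = 0.0816). It missed the threshold, was past it without shoot water A (-0.62, adjusted p = 0.0471) and with library totals (-0.54, adjusted p = 0.0274), and the adjusted p ran up to 0.319 with another library left out. Between 1 h and 3 h of PEG the change was -0.51 (SE 0.19, unadjusted p = 0.0136, edgeR adjusted p = 0.141). The authors' deposited table gives PIP1;5 in shoot an adjusted p of 0.561 at 3 h against water and 0.854 at 3 h against 1 h.

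PIP1A went the other way at 3 h. It held 320.4, 348 and 304 CPM in shoot water, 356, 240.0 and 348 at 1 h, 359.9, 315 and 284 at 2 h, and 356, 404 and 362 at 3 h. The 3 h libraries lay above all 3 water libraries, the 1 case of no overlap among the 30 comparisons of a member with water in root and shoot, and its log2 change was 0.21 (SE 0.16, edgeR adjusted p = 0.426). Such separation was common among the genes tested: it held for 30.4% of them in shoot at 3 h, 16.1% with PEG higher, and for 25.4% and 25% at 1 and 2 h, and in root for 22.4%, 13.8% and 13.8% at 1, 2 and 3 h.

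Whether the change under PEG differed between root and shoot was tested as the root change minus the shoot change. It was called for 0 of 5 members at 1, 2 or 3 h or over the mean, beside 1.33%, 1.2%, 2.6% and 2.74% of 10967 genes, and DESeq2 called 0 of 5 in each. At an unadjusted p under 0.05 there were 2 members at 1 h and 0 in the other 3 comparisons. The 2 were PIP1C (log2 -0.71, SE 0.34, edgeR adjusted p = 0.303) and PIP1;5 (-0.88, SE 0.39, edgeR adjusted p = 0.264). Of all 10967 genes, 1788, 883, 1398 and 1486 were under that p at 1, 2 and 3 h and over the mean. Over the mean of the times the 5 values ran from -0.51 for PIP1B to -0.18 for PIP1A. Without root water B they were -0.017 for PIP1A, -0.11 for PIP1B, -0.11 for PIP1C, 0.15 for PIP1;4 and 0.075 for PIP1;5, and at 1 h PIP1C was at -0.40 and PIP1;5 at -0.49. With library totals, which moved the median of all genes up by 0.28 over the mean, PIP1A (0.13) and PIP1;4 (0.12) were above 0.

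The 5 genes were also read as shares of their own summed counts, which do not depend on how libraries are scaled. The sum itself was 3952, 6942 and 4128 CPM in root water A, B and C, 2944 to 4949 in the 9 root PEG libraries, and 2640.4 to 3627 in the 12 shoot libraries. As a share of all counts it was 0.468 to 0.569% in root water, 0.387 to 0.521% in root PEG and 0.233 to 0.280% in shoot. By that measure the family took more of the root libraries than of any shoot library.

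PIP1;4 made up 5.51 to 6.95% of the PIP1 counts in the 12 root libraries and 15.0 to 17.6% in the 12 shoot libraries. PIP1;5 made up 2.71 to 4.08% in root and 4.67 to 9.61% in shoot, and PIP1C 33.1 to 41.2% in root and 23.0 to 30.3% in shoot. None of these 3 overlapped between organs, whatever the treatment. How often other genes, or shares within other families, separate in this way between organs was not counted. PIP1A, with 12.1 to 20.4% in root and 8.16 to 12.7% in shoot, and PIP1B, with 33.8 to 40.2% and 36.0 to 44.3%, did overlap. As shares of 1 sum, these values cannot all move freely.

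**Figure D4:**
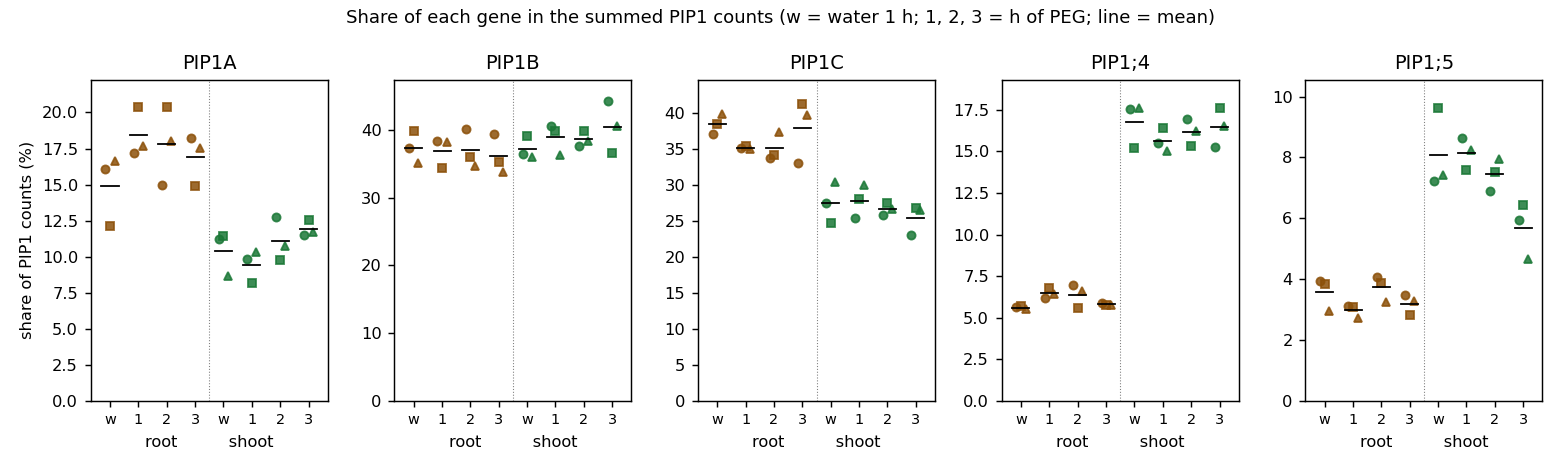
Share of each gene in the summed PIP1 counts (y axis, %) in root (brown) and shoot (green), by hours of PEG (w, water 1 h). Points are libraries, with replicate A, B and C as circle, square and triangle, and lines are means of 3. The shares of PIP1;4 and PIP1;5 are higher in shoot and that of PIP1C is higher in root.

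Within an organ the shares moved by smaller steps. In shoot the share of PIP1;5 fell outside its water range at 3 h of PEG, at 4.67 to 6.42% against 7.23 to 9.61%, with means of 5.68 ± 0.90% and 8.08 ± 1.32%. That of PIP1A was 11.5 to 12.5% at 3 h against 8.62 to 11.4% in water. In root at 1 h the share of PIP1A was 17.2 to 20.4% against 12.1 to 16.6%, that of PIP1C was 35.0 to 35.3% against 37.1 to 39.8%, and that of PIP1;4 was 6.17 to 6.78% against 5.51 to 5.68%. At 3 h in root PIP1;4 was at 5.77 to 5.85%. The other 24 of the 30 comparisons of a share with water overlapped, and no test was made on shares. By level, such separation from water held for 13.8 to 30.4% of all genes tested, by organ and time.

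The members varied together more in root than in shoot. Over the 12 root libraries Pearson's r of log2 levels was 0.67 to 0.96 for the 10 pairs, with PIP1B and PIP1;4 the closest at 0.96. Over the 12 shoot libraries it was -0.10 to 0.80, with PIP1C and PIP1;4 the closest at 0.80 and PIP1A and PIP1;5 the farthest at -0.10. The points share library, scaling and treatment, and root water B is the highest root point for each gene, so these values are a description only. Without root water B the 10 root values ran from 0.55 to 0.92.

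The genes whose pattern was most like each member were named by the mean of Pearson's r over the 12 root and the 12 shoot libraries, among 3259 genes with a mean of at least 20 CPM in each organ. PIP1A was most like NARA5 (0.78), MPK19 (0.75) and AT4G33660 (0.73). PIP1B was most like AT1G16180 (0.83), AT3G05500 (0.82) and RBP31, a chloroplast RNA-binding protein (0.82). PIP1C was most like AT3G61980 (0.91), HCD1 (0.91) and AT4G15610 (0.90). PIP1;4 was most like AT4G25740 (0.86), the splicing factor gene RS2Z33 (0.86) and the cyclophilin gene ROC1 (0.86), and PIP1;5 was most like AT5G26270 (0.86), AT1G11860 (0.86) and the photosystem I gene PSAO (0.86). Without root water B 12 of the 15 stayed among the 3 most like their member, and the other 3 ranked no lower than 7. By Spearman's rho 4 of the 15 were among the 3 most like, and AT1G16180 ranked 111 for PIP1B.

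Other aquaporins give the setting. Of 30 genes listed in the PIP2 group, the tonoplast (TIP), NOD26-like (NIP) and small basic (SIP) groups, the table held 20, and the root fit tested 18 and the shoot fit 15. In root 0 of the 18 were called at 1, 2 or 3 h, and over the mean of the 3 times 0 were higher and 2 lower, beside 0.328% and 0.708% of all genes. PIP2;4, a plasma membrane water channel, held 157, 286 and 127 CPM in root water and 55.7 to 82.6 in the 9 root PEG libraries, with no overlap (log2 -1.44, edgeR adjusted p = 0.00668). TIP4;1, of the vacuole, held 255, 387 and 183 CPM in water and 81.7 to 148 under PEG (-1.19, edgeR adjusted p = 0.0211). The call of PIP2;4 was lost without root water B (-1.04, adjusted p = 0.0505) and that of TIP4;1 without root water A (-1.24, adjusted p = 0.0828) or B (-0.88, adjusted p = 0.158). DELTA-TIP (TIP2;1, -1.11) was not called by edgeR (adjusted p = 0.0989) and was called by DESeq2 (adjusted p = 0.0124).

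In shoot at 3 h, 5 of the 8 PIP2 genes rose and 0 fell, beside the 0 of 5 PIP1 genes, and 1 of 5 TIP genes fell, where 10.4% of all genes rose and 6.7% fell. The median log2 value was 0.63 for the PIP2 genes, -0.02 for the PIP1 genes and -0.02 for all genes tested, and the difference between the groups was not tested. PIP2A (PIP2;1), a major water channel of roots and leaves, held 629, 683 and 706 CPM in shoot water and 1363, 1406 and 1210.0 at 3 h. Over the mean of the times it rose by log2 0.55 (edgeR adjusted p = 0.00309), PIP2B (PIP2;2) rose by 0.66 (edgeR adjusted p = 0.00333) and PIP2;8, at 3.84 to 16.1 CPM, fell by 0.90 (edgeR adjusted p = 0.0235). The call of PIP2;8 was lost without shoot water A (-0.54, adjusted p = 0.343). In edgeR's fit of all 24 libraries PIP2A (adjusted p = 0.0734) and PIP2;8 (adjusted p = 0.123) were not called. PIP2B and RD28 (PIP2;3) are near-identical copies, and how reads that match both were counted was not given.

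**Figure D5:**
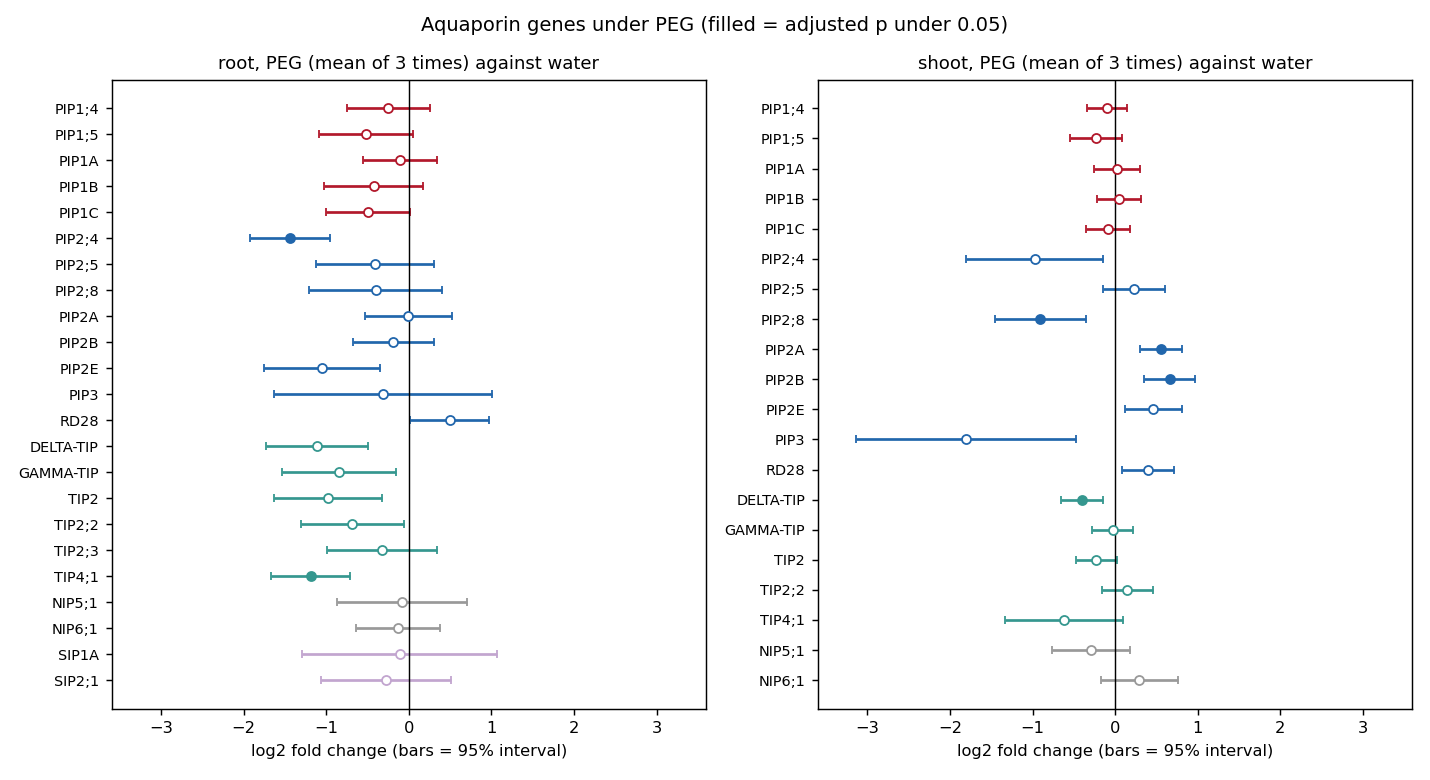
Log2 fold change (x axis) of PEG, as the mean of 1, 2 and 3 h, against water for the aquaporin genes tested in root (left) and shoot (right), with unadjusted 95% intervals and filled points where the edgeR adjusted p is under 0.05. The 5 PIP1 genes (top, red) are open in both organs, PIP2;4 and TIP4;1 are filled left of 0 in root, and in shoot PIP2A and PIP2B are filled right of 0 and PIP2;8 and DELTA-TIP left of it.

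Organ differences of the other aquaporins were of other sizes. TIP4;1 was higher in root in water by log2 5.74 (edgeR adjusted p = 3.96e-13) and TIP2;3 by 7.57 (edgeR adjusted p = 1.58e-11), and PIP2E (PIP2;6) was lower (log2 -5.06, edgeR adjusted p = 3.19e-12). Of the 18 tested 10 were higher in root, 3 were lower and 5 were not called, beside 27.1% and 26.2% of all genes higher and lower.

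Last, 10 genes known to act on the delivery or removal of PIP proteins were read, of which 9 were in the table and 7 were tested in each organ. In root 0 of 7 were called under PEG at 1, 2 or 3 h, where 0.472%, 0.185% and 0.226% of all genes were. In shoot 2 of 7 rose at 1 h and at 2 h, and at 3 h 3 rose and 1 fell. Of all shoot genes 7.2% rose and 5.16% fell at 1 h, 7.31% rose and 3.41% fell at 2 h, and 10.4% rose and 6.7% fell at 3 h. RMA1, a ubiquitin ligase of the endoplasmic reticulum that acts on PIP2A protein, held 28.8, 23.8 and 24.5 CPM in shoot water and 35.7, 51.8 and 65.5 at 1 h, 68.4, 75.3 and 67.6 at 2 h, and 76.8, 81.2 and 62.1 at 3 h. It rose by log2 0.91 (edgeR adjusted p = 0.0124), 1.45 (0.000159) and 1.50 (9.39e-05), and each PEG library lay above all 3 of water. Its relative RMA2 rose by 1.55, 1.54 and 1.81 (edgeR adjusted p = 0.000517, 0.000370 and 5.75e-05).

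TSPO, a membrane protein that binds PIP3 (PIP2;7) and brings about its degradation, held 2.54, 2.72 and 0 CPM in shoot water and 11.5, 8.33 and 7.99 at 3 h, a rise of log2 2.44 (edgeR adjusted p = 0.00591). SYP121, a syntaxin that delivers PIPs to the plasma membrane, held 206, 228 and 226 CPM in shoot water and 119, 168 and 148 at 3 h, a fall of log2 0.59 (log2 -0.59, edgeR adjusted p = 0.0208). That call was lost without shoot water B (adjusted p = 0.0638) and without shoot 3 h A (0.0912) or C (0.0768), and in the fit of all 24 libraries (0.10). These genes have been studied mostly with PIP2 proteins, and transcript counts give no measure of PIP1 protein.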

How the data were processed

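RNA of 24 libraries was counted per gene. Per the labels' protocols the libraries were made with MARS-seq, which tags 3′ transcript ends, and sequenced for 75 cycles. Among the tools listed, without roles, in the submitters' processing notes are HTSeq, STAR 2.4.2a, cutadapt, DESeq2 and bcl2fastq. For build, annotation, strand and the collapsing of molecular identifiers, nothing was given in the sources used here. The authors' deposited table holds raw counts, which enter every test, and 48 further per-sample columns that were not used. Its deposited log2 fold changes and each deposited p-value, adjusted per the file headers, were read for 9 of 28 comparisons.

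Counts were analysed in R 4.3.3 with edgeR 4.0.16 and limma 3.58.1 (filterByExpr, TMM, robust quasi-likelihood fit, two-sided tests, Benjamini-Hochberg adjustment over all genes tested). The 12 root libraries gave 9751 genes, the 12 shoot libraries 9207 and all 24 libraries 10967. Replicates varied more in root (biological coefficient of variation 34.2%) than in shoot (17.2%). The scripts were tested on simulated data. DESeq2 1.42.0, other scalings, no filter, a replicate block (by letter, and by seedling pool as a later addition) and leaving out each library were the alternatives. Replicate pairs differed by more than counting noise (chi-square per degree of freedom 2.30 to 35.3). Replicates pool 30 to 50 seedlings each, and the tests set differences between groups against the spread between these pooled replicates. Names came from RefSeq TAIR10.1, which matched 14457 of 14557 loci and gave the symbols used.

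The members and gene lists were chosen with earlier results of these data known, and NRT2.1 was named after its values were seen. The text names all 5 members, the 3 other aquaporins with the smallest adjusted p per organ under PEG and between organs in water, the 3 genes most like each member, called trafficking genes, and RD29A, RBCS1A and CASP1.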

Additional observations from a re-analysis of the deposited data

Results flagged for a closer look

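For no PIP1 gene was the difference between the root and the shoot change under PEG called after adjustment. Among the other aquaporins and the trafficking genes, 4 were called, by the root change minus the shoot change in edgeR's fit of all 24 libraries. Of all 10967 genes, 1.33%, 1.2%, 2.6% and 2.74% were called at 1, 2 and 3 h and over the mean. PIP2B (PIP2;2) and PIP2E (PIP2;6) were picked for this comparison of changes after their values were seen. With root and shoot of 1 letter as 1 seedling pool, both RMA2 calls stood and the other 5 below were lost (adjusted p = 0.165 and 0.0716 for RMA1 at 2 h and over the mean, 0.0623 for PIP2B, and 0.180 and 0.0782 for PIP2E at 3 h and over the mean).

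RMA2 had a root change minus shoot change of log2 -1.95 at 1 h (edgeR adjusted p = 0.0166), and the call was lost without shoot water A (adjusted p = 0.102) or B (0.0522), shoot 1 h C (0.0818), root water B (0.0544) or root 1 h B (0.0776), and with library totals (0.0636). Over the mean of the times it was -1.62 (edgeR adjusted p = 0.00785), lost without shoot water A (0.0778). RMA1 had -1.68 at 2 h (edgeR adjusted p = 0.0316), a call that stood only without root water C and was lost without any other of the 12 libraries, with adjusted p up to 0.162, and also with DESeq2's size factors (0.0549), library totals (0.0841) and no filter on low counts (0.0710). Over the mean RMA1 had -1.50 (edgeR adjusted p = 0.00982), lost without shoot water B (0.0607) or C (0.0654) or root water B (0.0848), and with library totals (0.0782).

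PIP2B had -1.34 at 3 h (edgeR adjusted p = 0.0203), lost without shoot water A (0.0895) or B (0.0923), shoot 3 h A (0.102) or B (0.0532), root water A (0.0550) or B (0.0512) or root 3 h C (0.0847). PIP2E had -1.59 at 3 h (edgeR adjusted p = 0.0422), a call that stood only without root water C and was lost without any other of the 12 libraries, with adjusted p up to 0.213. It was also lost with library totals (0.117), with no filter on low counts (0.0661) and with the replicate block (0.0687). Over the mean PIP2E had -1.55 (edgeR adjusted p = 0.0115), lost without shoot water A (0.0873) or root water A (0.141) or B (0.0592), and with library totals (0.0528). PIP2E was low in root, at 5.34 to 22.1 CPM, and 414 to 977 CPM in shoot.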

How the results depend on the processing

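No PIP1 value that passed the threshold turned its direction under any alternative run. Of the 80 member values, DESeq2's Wald test left 79, DESeq2's size factors 78 and no filter 75 with the same direction and call, and library totals left 56. Deviations from group means did not pair libraries by letter throughout: same-letter pairs had a median r of 0.13 in root (10 of 18 over 0.1; different letters -0.053), -0.079 in shoot (2 of 18) and -0.066 between root and shoot of 1 treatment and time (1 of 12). With the letter as a replicate block all 80 member values kept direction and call, for example PIP1;4 between organs in water at log2 -0.93. The organs of each pool of seedlings were separated, but the labels do not say that a letter marks the same pool in both. A replicate block by seedling pool, added after the data were seen, changed the call of 1 of 30 member values, PIP1B between organs in water, and called 59, 64 and 186 genes in the root change minus the shoot change at 1 h, at 2 h and over the mean. DESeq2 gave no adjusted p for TSPO at 3 h against 1 h in shoot. Replicates varied more in root, with a coefficient of variation of 34.2% over all genes, than in shoot (17.2%). Whether this spread kept root changes of the members from being called was not tested. Other causes were not tested either.

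Library totals move all genes together: the root median became 0.41, 0.26 and 0.29 at 1, 2 and 3 h and 0.32 over the mean, and every root member value against water stayed below it. They turned these root values under PEG: PIP1A to 0.17, 0.19 and 0.028 at 1, 2 and 3 h and 0.13 over the mean, PIP1;4 to 0.057 and 0.093 at 1 and 2 h and 0.0067 over the mean, and PIP1B at 3 h against 1 h to -0.074. In shoot they turned PIP1B, PIP1C and PIP1;5 at 1 h to -0.025, -0.089 and -0.076, PIP1A and PIP1B at 2 h to 0.057 and 0.021, and PIP1A over the mean to -0.0047. In the root change minus the shoot change they turned PIP1A and PIP1;4 at 1 h to 0.40 and 0.25, PIP1A and PIP1;5 at 2 h to 0.13 and 0.13, PIP1;5 at 3 h to 0.20, and PIP1A and PIP1;4 over the mean to 0.13 and 0.12. For PIP1A in that difference at 2 h DESeq2's size factors gave 0.0073, its Wald test 0.0068 and no filter 0.11, and no filter gave 0.10 for PIP1;5. No filter also turned PIP1A in root to 0.020 at 2 h and to 0.014 at 3 h against 1 h, and the fit of all 24 libraries turned PIP1B in shoot at 3 h against 1 h to -0.024.

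Counts of all genes called moved by over 1.5 times. DESeq2 called 208, 106, 123 and 319 root genes at 1, 2 and 3 h and over the mean, and the fit of all 24 libraries 226, 100, 111 and 387. That fit called 488, 554, 914 and 864 shoot genes and 114 between 3 h and 1 h. For the root change minus the shoot change at 1 h, library totals gave 76 genes and DESeq2 347. Library totals called 1 PIP1 gene in shoot at 3 h, PIP1;5.

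Leaving out 1 library gave 1 to 43 root genes at 1 h, 0 to 3 at 2 h, 0 to 14 at 3 h, 41 to 129 over the mean (lowest without root water B), 606 to 1338 shoot genes at 1 h (lowest without shoot water A), and 248 to 487 between 3 h and 1 h. The root change minus the shoot change then had 47 to 238, 64 to 121 and 174 to 326 genes at 1 h, at 2 h and over the mean, each lowest without shoot water A. PIP1 genes called in shoot at 3 h were 0 to 1. The values of members that crossed 0, none of them called, ran as follows. In root, PIP1;4 at 1 h ran from -0.46 to 0.0048. At 2 h PIP1A ran from -0.17 to 0.16, PIP1B from -0.57 to 0.039, PIP1;4 from -0.38 to 0.19 and PIP1;5 from -0.48 to 0.13. Over the mean PIP1A ran from -0.20 to 0.0017 and PIP1;4 from -0.40 to 0.053, and at 3 h against 1 h PIP1A from -0.14 to 0.13, PIP1B from -0.059 to 0.28 and PIP1;4 from -0.11 to 0.13. RD29A in root at 3 h ran from -0.13 to 0.17. In shoot at 1 h PIP1A ran from -0.24 to 0.038, PIP1B from -0.0024 to 0.12, PIP1C from -0.10 to 0.14 and PIP1;5 from -0.081 to 0.15, at 2 h PIP1A from -0.096 to 0.050 and PIP1B from -0.17 to 0.0085, and at 3 h PIP1C from -0.18 to 0.030 and PIP1;4 from -0.087 to 0.073. Over the mean PIP1A ran from -0.054 to 0.092, PIP1B from -0.0073 to 0.082 and PIP1C from -0.16 to 0.051, and at 3 h against 1 h PIP1B from -0.046 to 0.14. In the root change minus the shoot change, PIP1A and PIP1;4 at 1 h ran from -0.24 to 0.024 and from -0.38 to 0.054. At 2 h PIP1A ran from -0.097 to 0.26, PIP1B from -0.45 to 0.16, PIP1C from -0.37 to 0.067, PIP1;4 from -0.15 to 0.42 and PIP1;5 from -0.18 to 0.42. At 3 h PIP1;5 ran from -0.28 to 0.29, and over the mean PIP1;4 from -0.27 to 0.15 and PIP1;5 from -0.49 to 0.075.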
